A study of Mus musculus with 87 samples.

Results

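Astrocyte identity and reactivity genes were followed through an IFN-γ challenge of the mouse ventral midbrain. The 9 genes were Slc1a2, Slc1a3, Slc4a4, Gja1, Aqp4 and Fgfr3 as identity genes and Gfap, Vim and Apoe as genes of reactivity and lipid transport, chosen by symbol from the 48526 genes of a table of sorted nuclei, and the same symbols were read in 194 astrocyte-like nuclei among 4699 single nuclei. WT C57BL/6J mice, adults of both sexes aged 6 to 12 months, received 40 ng of IFN-γ in 400 nL of saline or saline alone in the ventral midbrain. Nuclei were sorted at 6, 24, 48 and 72 h into a NeuN+ fraction, which holds neurons, and a NeuN- fraction, which holds glia and other cells, and RNA of small pools of nuclei was sequenced with one well per pool. Each fraction had 42 wells: at every time 6 were IFN-γ wells, and saline was given to 6 at 24 h and to 4 at each other time. A second experiment sequenced single nuclei at 48 h from 1 saline mouse and 2 IFN-γ mice, after a sort that brought NeuN+ nuclei to about 70% of each sample.

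Astrocytes take up glutamate from synapses, buffer ions and water, and are joined into networks by gap junctions. Slc1a2 (GLT-1) and Slc1a3 (GLAST) are their glutamate transporters, Slc4a4 is a sodium bicarbonate cotransporter, Gja1 is the gap junction protein connexin 43, Aqp4 is the water channel of perivascular endfeet, and Fgfr3 is a fibroblast growth factor receptor. Gfap and Vim are intermediate filament proteins that reactive astrocytes are known to accumulate, and Apoe is the main lipid carrier that glia secrete; Vim and Apoe are also made by other cells, Apoe by microglia among them.

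NeuN- wells held 20962 to 301445 unique molecules (UMIs, counts of distinct RNA molecules) and NeuN+ wells 277113 to 1684374. Levels are given as CPM, the counts of a gene scaled to a common well total, and a member at low CPM in a NeuN- well rests on a handful of molecules: over the 42 NeuN- wells Gfap had 35 UMIs, Vim 56, Fgfr3 120, Apoe 198, Gja1 222 and Aqp4 259, against 1608 for Slc1a3, 2241 for Slc1a2 and 3018 for Slc4a4. By the study's methods the 4 to 6 wells of a group held nuclei of 2 to 3 mice. Some wells of a group therefore share a mouse, and the sources used here do not tie wells to mice. So n counts wells and not animals, and a p-value measures the spread between wells, which may be technical and may understate that between mice. Irf1 and Gbp2, early IFN-γ targets, were higher by 6.88 and 6.81 on the log2 scale in NeuN- wells at 6 h. Among 186 pairs of wells of one group, 1 pair, both NeuN- IFN-γ wells at 6 h, did not differ beyond sampling noise (chi-square per degree of freedom 1.02, p = 0.170, chi-square test over genes). Tests used 6 wells there, and counting the pair as 1 well left 308 genes called where 312 had been.

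Sex-linked genes differed between wells. The 4 Y genes Ddx3y, Eif2s3y, Kdm5d and Uty, summed, were compared with Xist, the RNA of the inactive X chromosome. In NeuN- wells at 48 h Xist was the higher in all wells of both groups, and at 72 h the Y genes were the higher in all 6 IFN-γ wells and in 3 of 4 saline wells. At 24 h the Y genes were the higher in all 6 IFN-γ wells of each fraction and in 2 of 6 saline wells. At 6 h they stood at 286 to 363 CPM in saline and at 0 to 95.4 CPM in IFN-γ NeuN- wells, with Xist high in both. At 6 h the mice and the treatment therefore cannot be told apart, and at 24 h values are also given against the 2 saline wells of each fraction in which the Y genes were the higher, a choice made after seeing the data. Those 2 wells may hold nuclei of 1 mouse, and then the SE and p-value against them carry no spread between saline mice.

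In saline wells the members other than Vim were lower in the NeuN+ than in the NeuN- fraction. Slc1a3 had a median of 243 CPM in 18 NeuN- wells and 20.9 CPM in 18 NeuN+ wells, a log2 difference of -3.70 ± 0.18 (SE; adjusted p = 2.91e-25, edgeR's quasi-likelihood test with Benjamini-Hochberg adjustment). Slc4a4 had 436 and 93.6 CPM (-2.29 ± 0.16, adjusted p = 7.00e-19), and Slc1a2 had 271 and 97.6 CPM (-1.68 ± 0.14, adjusted p = 2.10e-15). All 3 members that passed the filter on low counts were called lower in NeuN+ wells, at an adjusted p under 0.01 and a log2 difference beyond 0.5, where 59.4% of the 4585 genes tested were called in either direction. Without that filter 7030 genes were called in either direction, and 8 of the 9 members were called lower. Among these Fgfr3 was at -2.66, Gfap at -2.61, Gja1 at -2.54, Aqp4 at -2.50 and Apoe at -2.07. Vim was not called (-1.08, adjusted p = 0.101). The sort itself separated the fractions at Rbfox3, which encodes NeuN: its median was 4.71 CPM in NeuN- wells (highest 130) and 125 CPM in NeuN+ wells (lowest 93.8). In bulk nuclei of this kind, fewer astrocytes and less RNA per astrocyte cannot be told apart.

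On GRCm38 the GENCODE annotation places Slc1a2 at chr2:102658659-102790784 and Slc4a4 at chr5:88886818-89239653 on the plus strand, and Slc1a3 at chr15:8634124-8710764, Gfap at chr11:102887336-102900912 and Apoe at chr7:19696109-19699188 on the minus strand, all as protein-coding genes. Promoter windows of the members, from 250 bases before to 50 after the RefSeq start site, were read from RefSeq on GRCm38.p6. Windows were found for 8 of the 9 members, 12 windows in all, and were searched on both strands for the γ-activated site TTCNNNGAA, whose letters read the same on both strands, and for the interferon-stimulated motif, GAAA and GAAA with any 2 bases between, which was counted separately. TTCNNNGAA was found in Gfap and in Slc1a3 and in no other of the 12 windows. It lies in 8.30% of all 32851 such windows and in a window of 9.55% of genes. The interferon-stimulated motif was in none of the 12 windows and is in 3.44% of all windows. The windows of Gfap (chr11:102897151-102897450, minus strand), Slc1a3 (chr15:8710758-8711057, minus strand) and Slc1a2 (chr2:102706188-102706487, plus strand) are shown, the first pair because they hold the motif and the third because Slc1a2 was the member called most often after IFN-γ. Capitals mark TTCNNNGAA, which begins 2 bases before the RefSeq start site in Gfap and 96 bases before it in Slc1a3. The windows of Slc1a2 and Gfap lie inside the GENCODE spans of these genes. The outer starts of those spans, 102658659 for Slc1a2 and 102900912 for Gfap, lay in no window searched.
Gfap: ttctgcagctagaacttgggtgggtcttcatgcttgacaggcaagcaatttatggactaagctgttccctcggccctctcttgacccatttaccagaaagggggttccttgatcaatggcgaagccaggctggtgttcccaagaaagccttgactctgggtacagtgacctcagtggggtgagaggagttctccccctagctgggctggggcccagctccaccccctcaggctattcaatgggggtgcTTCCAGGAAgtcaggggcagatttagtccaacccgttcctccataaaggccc
Slc1a3: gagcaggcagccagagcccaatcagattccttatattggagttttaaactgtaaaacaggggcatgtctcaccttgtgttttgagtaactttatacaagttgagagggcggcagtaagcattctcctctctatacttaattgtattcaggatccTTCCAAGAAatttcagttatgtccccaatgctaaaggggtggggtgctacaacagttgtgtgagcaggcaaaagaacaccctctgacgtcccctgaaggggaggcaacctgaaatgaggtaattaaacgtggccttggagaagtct
Slc1a2: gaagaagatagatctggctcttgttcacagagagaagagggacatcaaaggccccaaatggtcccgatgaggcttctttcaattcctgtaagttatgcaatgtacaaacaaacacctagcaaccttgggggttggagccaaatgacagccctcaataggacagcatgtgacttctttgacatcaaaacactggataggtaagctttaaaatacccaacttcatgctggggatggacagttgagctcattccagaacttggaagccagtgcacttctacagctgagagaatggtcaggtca
A match gives the letters alone, and occupancy of these windows was not measured.

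Slc1a2, the main glutamate transporter of astrocytes, was called higher after IFN-γ in NeuN- wells at 24 and 48 h, and Slc4a4 at 24 h, each relative to all RNA of a well. The 24 h calls were lost against the 2 saline wells matched in sex-linked genes, and the 24 and 48 h calls were lost when the wells were scaled to astrocyte markers, as described further on. A gene was called at an adjusted p under 0.01 and a log2 fold change beyond 1. At 6 h none of the 3 members tested was called, where 11.7% of 2660 genes were; at 24 h 2 of 3 were, where 14.6% of 1883 genes were; at 48 h 1 of 3 was, where 1.4% of 2352 genes were; at 72 h none of 3 was, where 1.13% of 2916 genes were. Only Slc1a2, Slc1a3 and Slc4a4 passed the filter on low counts in these wells, and the other 6 members are given below from their wells.

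Slc1a2 at 6 h stood at 214, 249.9, 276 and 286 CPM in the 4 saline wells, and its 6 IFN-γ wells ran from 191 to 509 CPM with a median of 468. Of the IFN-γ wells, 5 of 6, at 436 CPM and above, lay over every saline well, and the sixth lay under all of them. At 24 h saline wells ran from 101 to 432 CPM (median 273) and IFN-γ wells from 557 to 1016 (median 796). At 48 h saline wells stood at 135, 175, 194 and 265 CPM, and IFN-γ wells ran from 364 to 552 (median 411). At both times the groups did not overlap, every IFN-γ well being above every saline well. At 72 h the order was the other way. Saline wells stood at 427, 431, 443 and 454 CPM, and the 6 IFN-γ wells, 238 to 407 (median 354), all lay below them. The share of all genes whose groups are apart in this way was not counted at any time. Separation of wells, here and for the members below, therefore does not by itself set a member off from other genes.

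The log2 fold change of Slc1a2 in NeuN- wells was 0.81 ± 0.15 at 6 h (adjusted p = 6.21e-05, under the fold limit), 1.35 ± 0.20 at 24 h (2.43e-06), 1.21 ± 0.18 at 48 h (8.57e-06) and -0.39 ± 0.14 at 72 h (0.130). Against the matched saline wells, at 352 and 432 CPM, all 6 IFN-γ wells were still higher at 24 h, and the log2 fold change was 0.83 ± 0.20 (adjusted p = 0.00115), under the fold limit. The saline wells themselves differed between times: Slc1a2 was called in a test of the 4 saline times in NeuN- wells (adjusted p = 0.00405), as was Slc4a4 (0.00764), and Slc1a3 was not (0.170), 2 of 3 members where 1.08% of 2782 genes were called. Mean saline CPM of Slc1a2 was 257, 274, 192 and 439 at 6, 24, 48 and 72 h, and mean IFN-γ CPM 429, 794, 422 and 339. The saline mean at 48 h was thus the lowest and that at 72 h the highest of the 4, and Xist was the higher at the first of these times and the Y genes, in 3 of 4 wells, at the second, so time and mice cannot be told apart. Against saline wells of all times the 48 h log2 fold change was 0.51 and not called, and without 1 saline well (replicate 1) it was 0.98.

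**Figure D1:**
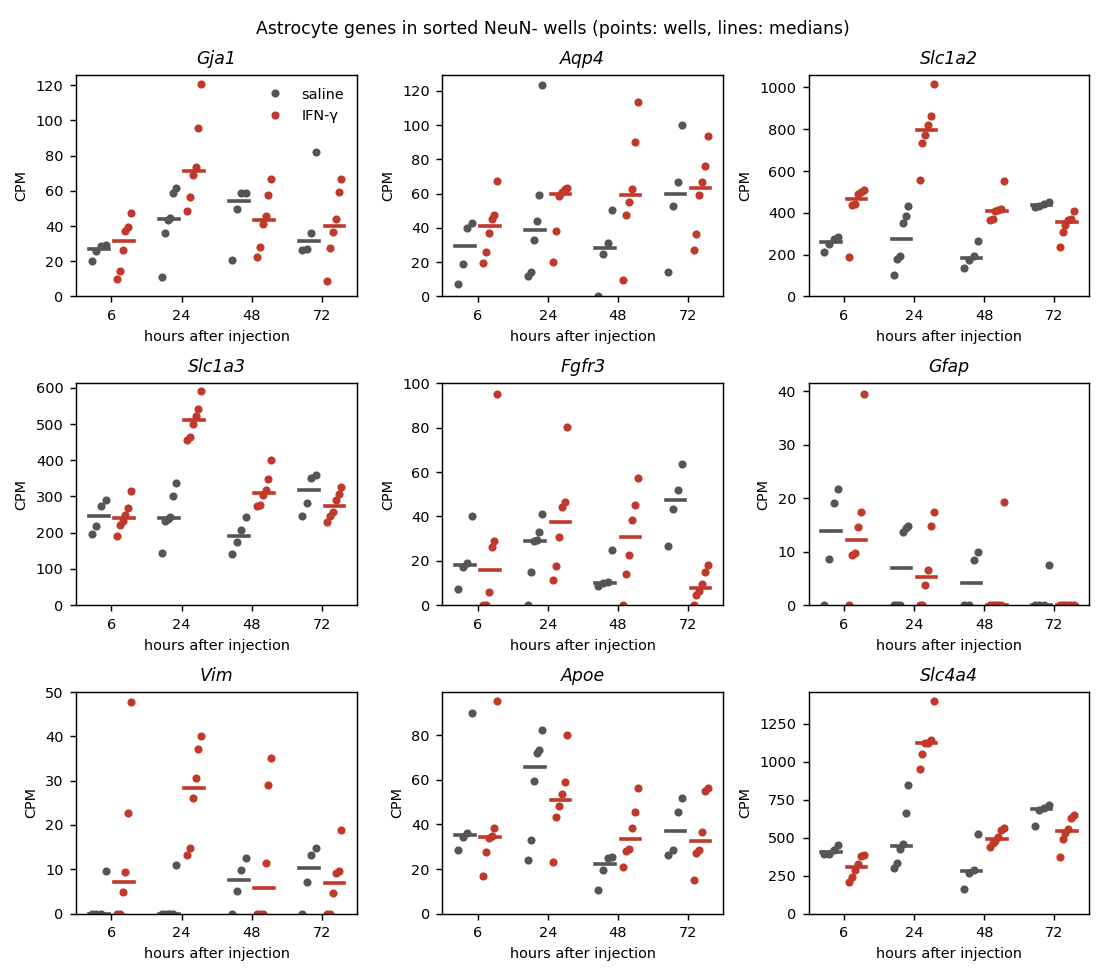
CPM of the 9 members in each NeuN- well by hours after injection, saline and IFN-γ wells side by side, with points for wells and lines for medians. Slc1a2, Slc1a3 and Slc4a4 show IFN-γ wells above every saline well at 24 h, while the 6 other members sit at lower CPM with most groups overlapping. The share of all genes whose groups are apart in this way was not counted.

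Slc1a3, the second glutamate transporter, followed a like course without a call in NeuN- wells. At 6 h saline wells stood at 196, 219.6, 274 and 289.9 CPM and IFN-γ wells ran from 191 to 314 (median 239.5). At 24 h saline wells ran from 144 to 337 CPM (median 239.8) and IFN-γ wells from 456 to 591 (median 511), and at 48 h saline wells stood at 140.0, 175, 206 and 244 CPM and IFN-γ wells ran from 273 to 399 (median 311). The groups overlapped at 6 h and were apart at 24 and 48 h. At 72 h they overlapped again, with saline wells at 245, 283, 350.2 and 359 CPM and IFN-γ wells from 229 to 327. The log2 fold change was 0.93 ± 0.16 at 24 h (adjusted p = 1.52e-05) and 0.84 ± 0.18 at 48 h (0.00183), both under the fold limit, and -0.20 ± 0.16 at 72 h (0.609). Without the filter on low counts the 24 h value was 1.07 and was called. Against the matched saline wells, at 302 and 337 CPM, it was 0.57 ± 0.20 (adjusted p = 0.0335).

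Slc4a4, the sodium bicarbonate cotransporter, stood at 389.9, 394, 421 and 449 CPM in saline NeuN- wells at 6 h and ran from 209 to 384 CPM (median 307) in IFN-γ wells, all 6 below the saline wells. At 24 h saline wells ran from 298 to 843 CPM (median 442) and IFN-γ wells from 948 to 1399 (median 1122), all above. At 48 h the groups overlapped, with saline wells at 162, 269.6, 286 and 521 CPM and IFN-γ wells from 439 to 564 (median 489). At 72 h saline wells stood at 575, 681, 692 and 712 CPM and IFN-γ wells ran from 374 to 649 (median 545), again with overlap. The log2 fold change was -0.40 ± 0.15 at 6 h (adjusted p = 0.0400), 1.04 ± 0.17 at 24 h (1.54e-05, called), 0.73 ± 0.18 at 48 h (0.00676, under the fold limit) and -0.36 ± 0.13 at 72 h (0.130). The 24 h value lay close to the limit: leaving out saline well 1, 2, 5 or 6 or IFN-γ well 5 gave 0.90 to 0.98, and no call. The matched saline wells were the highest of the 6, at 660 and 843 CPM, and against them the value was 0.41 ± 0.16 (adjusted p = 0.0553).

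Markers of astrocytes other than the members moved with these values. The summed level of 14 astrocyte markers, of which all were detected in both fractions, was 1163 to 3518 CPM in saline and 4444 to 5264 CPM in IFN-γ NeuN- wells at 24 h, and 1199 to 2202 against 2438 to 3169 CPM at 48 h. At 24 h the 2 matched saline wells held the highest saline values of the list, 3209 and 3518 CPM. It was lower after IFN-γ at 6 h (1959 to 2568 in saline, 1193 to 2069 in IFN-γ wells) and at 72 h (3050 to 3542 and 2261 to 2982). Gpc5, a glypican, held 63.9% of the list's counts in NeuN- wells, and without it the medians of the list kept the same order at all 4 times, with 388 to 1422 against 1741 to 2210 CPM at 24 h. The summed level of 12 oligodendrocyte markers moved the other way at 24 h, at 12697 to 14478 CPM in saline and 5185 to 5905 CPM in IFN-γ wells, and at 48 h, at 13930 to 15186 and 12054 to 13415 CPM. The 10 microglia markers were at 468 to 642 CPM in saline and 47.7 to 260.5 CPM in IFN-γ wells at 6 h, and at 551 to 716 and 304 to 521 CPM at 48 h. In both lists every IFN-γ well at 48 h lay below every saline well.

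With library size replaced by the summed astrocyte list, the 24 h log2 fold change was 0.40 for Slc1a2, -0.09 for Slc1a3 and 0.07 for Slc4a4, and the 48 h values were 0.49, 0.11 and 0.04, none of them called. On this scale the median of all genes tested was itself at -1.06 at 24 h and -0.72 at 48 h. At 6 h, when the list was lower, Slc1a2 stood out from it: its CPM over that of the list was 0.0973 to 0.128 in saline and 0.160 to 0.272 in IFN-γ wells, all 6 above the saline wells, and its log2 fold change on the list's scale was 1.11, which was called (1.30 without Gpc5), with the median of all genes at 0.30. At 24 h the same ratio overlapped between groups, at 0.0574 to 0.224 in saline and 0.125 to 0.218 in IFN-γ wells. Whether the share of astrocyte nuclei in the pools or the RNA per nucleus moved was not tested.

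**Figure D2:**
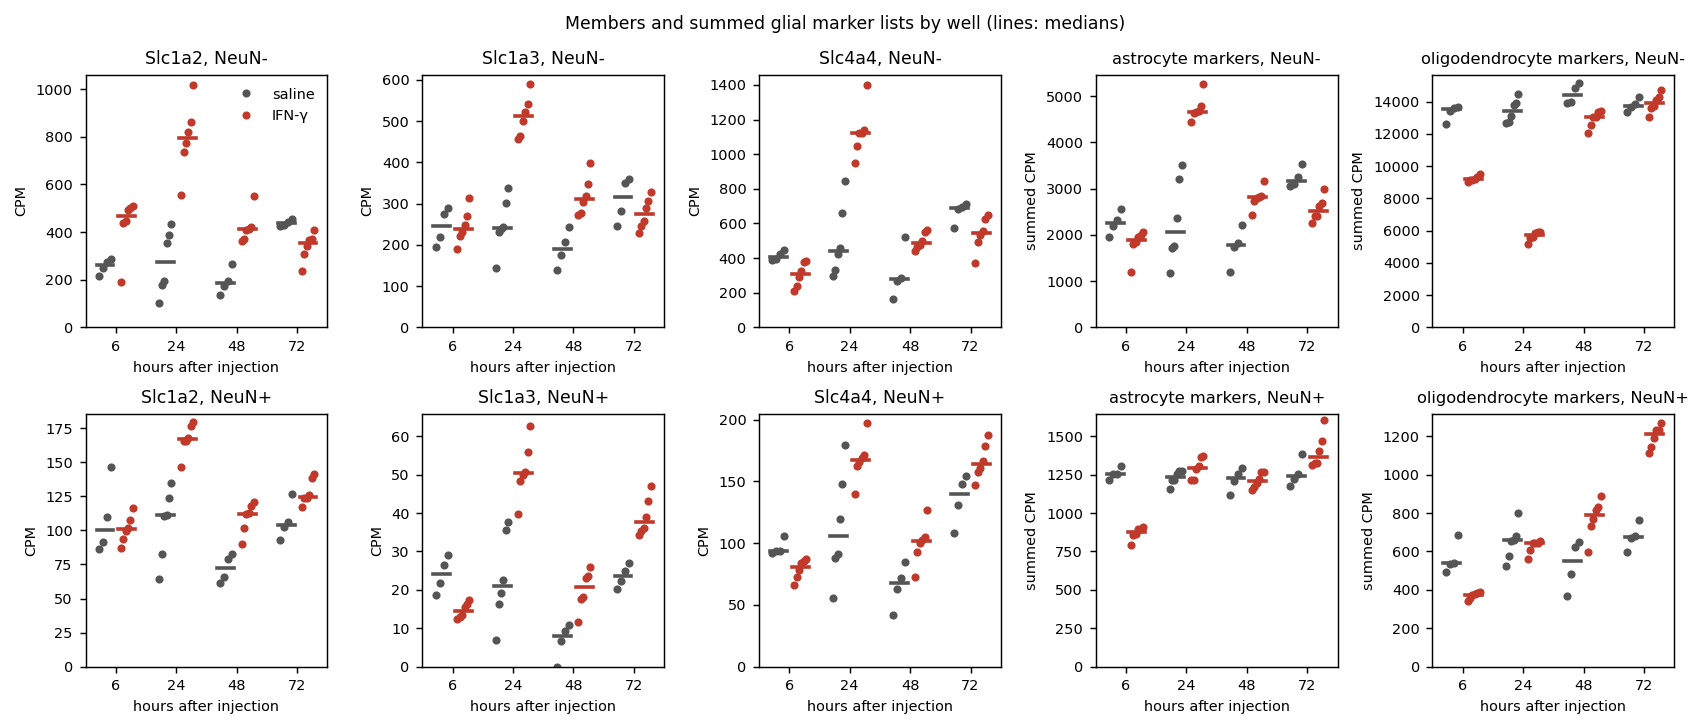
CPM of Slc1a2, Slc1a3 and Slc4a4 and the summed CPM of the astrocyte and oligodendrocyte marker lists by hours after injection in NeuN- wells (upper panels) and NeuN+ wells (lower panels), with points for wells and lines for medians. In NeuN- wells the astrocyte list of the IFN-γ wells lies above that of all saline wells at 24 and 48 h, as Slc1a2 and Slc1a3 do, and the oligodendrocyte list lies below that of all saline wells at 6, 24 and 48 h.

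Of the other identity genes, Gja1 (connexin 43) in NeuN- wells at 24 h ran from 11.03 to 61.7 CPM in saline and from 48.3 to 121 CPM in IFN-γ wells, 4 of 6 above every saline well. At 48 h it stood at 20.7, 50.0, 59.0 and 59.0 CPM in saline wells and ran from 22.5 to 66.9 in IFN-γ wells, and the groups overlapped at 6 and 72 h as well. Aqp4, the endfoot water channel, overlapped at every time, with 12.1 to 123 CPM in saline and 20.1 to 63.2 CPM in IFN-γ wells at 24 h, and 0, 25.0, 31.1 and 50.5 CPM against 9.64 to 114 CPM at 48 h. These levels did not separate the groups.

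Fgfr3 separated them at 72 h alone. Saline NeuN- wells stood at 26.4, 43.1, 52.1 and 63.5 CPM and the 6 IFN-γ wells ran from 0 to 18.1 CPM (median 7.90), all lower. The groups summed to 24 and 7 UMIs, a ratio of 0.186 with an exact 95% interval of 0.0678 to 0.445 that covers counting error only, and in the fit without a filter the log2 difference was -2.31 ± 0.60 (adjusted p = 0.0222), not called. At 48 h saline wells stood at 8.42, 9.83, 10.4 and 25.0 CPM and IFN-γ wells ran from 0 to 57.4, with overlap, as at 6 and 24 h.

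Gfap, the filament protein by which reactive astrocytes are usually recognized, was near the limit of detection in sorted nuclei. In NeuN- wells at 6 h it stood at 0, 8.56, 19.1 and 21.8 CPM in saline and ran from 0 to 39.6 CPM in IFN-γ wells, and at 24 h from 0 to 14.8 and from 0 to 17.4 CPM. At 48 h saline wells stood at 0, 0, 8.42 and 9.83 CPM and 5 of 6 IFN-γ wells at 0, the sixth at 19.3. At 72 h 3 of 4 saline wells and all 6 IFN-γ wells were at 0. No rise of Gfap was seen in NeuN- wells at any time. At 48 h each group held 2 UMIs in all, a ratio of 0.734 with a counting interval of 0.0532 to 10.1. In NeuN+ wells at 48 h all 6 IFN-γ wells, at 0.644 to 2.91 CPM, lay above the saline wells, at 0, 0, 0 and 0.614, on 6 UMIs against 1, a ratio of 3.64 with a counting interval of 0.442 to 167.

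Vim, the other filament protein, was at 0 in 5 of 6 saline NeuN- wells at 24 h and at 11.03 CPM in the sixth, and its IFN-γ wells ran from 13.3 to 40.2 CPM (median 28.4). Every IFN-γ well lay above every saline well, the matched saline wells at 0 among them, on 24 UMIs against 1, a ratio of 13.5 with a counting interval of 2.20 to 554. Vim did not pass the filter on low counts; without it the log2 fold change was 3.26 ± 0.93 (adjusted p = 0.00997, called), and DESeq2 gave an adjusted p of 0.0237. At 6, 48 and 72 h its wells overlapped, with IFN-γ medians of 7.07, 5.69 and 6.85 CPM and 1, 3 and 5 UMIs in all saline wells of the group. The vascular markers, whose cells also make Vim, summed to 58.6 to 178 CPM in saline and 123 to 323 CPM in IFN-γ NeuN- wells at 24 h. In the single-nucleus libraries at 48 h Vim ran from 0 to 108 CPM in microglia-like and from 0 to 12.9 CPM in astrocyte-like nuclei. The part of vascular cells and microglia in the Vim value was not tested.

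Apoe, the lipid carrier, overlapped at all 4 times in NeuN- wells. It ran from 24.2 to 82.3 CPM in saline and 23.2 to 80.4 CPM in IFN-γ wells at 24 h, and from 26.4 to 52.1 and 14.9 to 56.4 CPM at 72 h. At 48 h saline wells stood at 10.4, 19.7, 25.0 and 25.3 CPM and IFN-γ wells ran from 20.7 to 56.3, with 5 of 6 above every saline well. Over all 9 members without the filter, 6 had a log2 fold change above 0 at 6 h, 7 at 24 h, 7 at 48 h and 1 at 72 h in NeuN- wells, with medians of 0.08, 0.68, 0.84 and -0.34 beside medians of -0.02, 0.17, 0.04 and 0.11 over all genes.

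In NeuN+ wells the members were at lower CPM and Slc1a3 was the one called. None of 3 members tested was called at 6 h, where 1.37% of 9033 genes were; 1 of 3 was at 24 h, where 1.73% of 9416 were; none of 3 was at 48 h, where 0.169% of 10033 were; and none of 4 was at 72 h, where 0.766% of 9405 were. Slc1a3 stood at 18.8, 21.7, 26.5 and 29.0 CPM in saline and 12.4 to 17.2 CPM in IFN-γ wells at 6 h, and from 6.81 to 37.8 against 39.7 to 62.7 CPM at 24 h. At 48 h it stood at 0, 6.76, 9.23 and 10.9 CPM against 11.6 to 26.0 CPM, and at 72 h at 20.2, 22.3, 25.0 and 27.0 against 34.4 to 47.0 CPM. The groups were apart at all 4 times, IFN-γ wells below at 6 h and above from 24 h on. The share of all genes that separate in this way was not counted in NeuN+ wells either. Separation alone therefore does not set Slc1a3 off from other genes. The saline wells at 48 h were themselves low, with a mean of 6.73 ± 4.80 CPM (SD, n = 4) where the other times had 23.1 to 24.0 CPM, and the IFN-γ wells at 48 h had 20.04 ± 5.26 CPM (SD, n = 6). The log2 fold change was -0.78 ± 0.23 at 6 h (adjusted p = 0.0257), 1.07 ± 0.22 at 24 h (0.00165, called), 1.49 ± 0.32 at 48 h (0.0231) and 0.64 ± 0.17 at 72 h (0.0143). Against saline wells of all times the 48 h value was 0.016 ± 0.28 (adjusted p = 0.999). At 72 h other markers moved with Slc1a3 in NeuN+ wells: the oligodendrocyte list was at 597 to 761 CPM in saline and 1111 to 1271 CPM in IFN-γ wells, and the dopamine neuron list at 152 to 252 and 452 to 566 CPM. Their part in the Slc1a3 value was not tested. Without saline well 7 the 24 h value was 0.90 and not called, and against the 2 matched saline wells, at 19.2 and 37.8 CPM, it was 0.82 ± 0.21 (adjusted p = 0.0152).

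Slc1a2 in NeuN+ wells ran from 64.5 to 135 CPM in saline and from 147 to 180 CPM in IFN-γ wells at 24 h, and stood at 61.7, 66.2, 79.3 and 82.4 against 90.1 to 121 CPM at 48 h. The groups did not overlap at these times and did at 6 and 72 h. Its log2 fold change was 0.70 ± 0.11 at 24 h (adjusted p = 6.73e-05) and 0.59 ± 0.10 at 48 h (0.00142), under the fold limit, and 0.56 ± 0.10 at 24 h against the matched wells (5.58e-04). Slc4a4 stood at 92.1, 93.5, 93.8 and 106 CPM in saline and 65.9 to 87.0 CPM in IFN-γ wells at 6 h, all lower, and its log2 difference was -0.34 ± 0.11 (adjusted p = 0.0439). Gja1 at 6 h was lower in all 6 IFN-γ wells too, at 0 to 3.35 CPM against 3.52 to 9.67 CPM in saline (-1.80 without the filter, adjusted p = 0.0533). Aqp4 was at 0 to 2.52 CPM in saline and 0 to 12.2 CPM in IFN-γ wells at 48 h, with 5 of 6 above every saline well. The list of 14 astrocyte markers overlapped between groups in NeuN+ wells at 24 h (1159 to 1276 CPM in saline, 1216 to 1369 in IFN-γ wells) and at 48 h (1120 to 1295 and 1152 to 1269), and Gpc5 held 81.5% of its counts there. Without Gpc5, a choice made after seeing the data, the list moved with these members: 177 to 244 CPM in saline against 128 to 156 in IFN-γ wells at 6 h, 153 to 245 against 304 to 359 at 24 h, 137 to 179 against 203 to 245 at 48 h and 160 to 197 against 266 to 293 at 72 h. Scaled to the list of 14, the 24 h log2 fold change in NeuN+ wells was 0.97 for Slc1a3 (adjusted p = 0.00617), just under the fold limit, 0.59 for Slc1a2 and 0.45 for Slc4a4, with the median of all genes at -0.12. Scaled to the list without Gpc5 it was 0.38, -0.03 and -0.16, with the median of all genes at -0.78. No member was called on either scale. In the single-nucleus libraries at 48 h Slc1a2 ran from 134 to 171 CPM in dopamine neuron-like nuclei. The part of astrocyte nuclei, their free RNA or the RNA of neurons in the NeuN+ values was not tested.

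**Figure D3:**
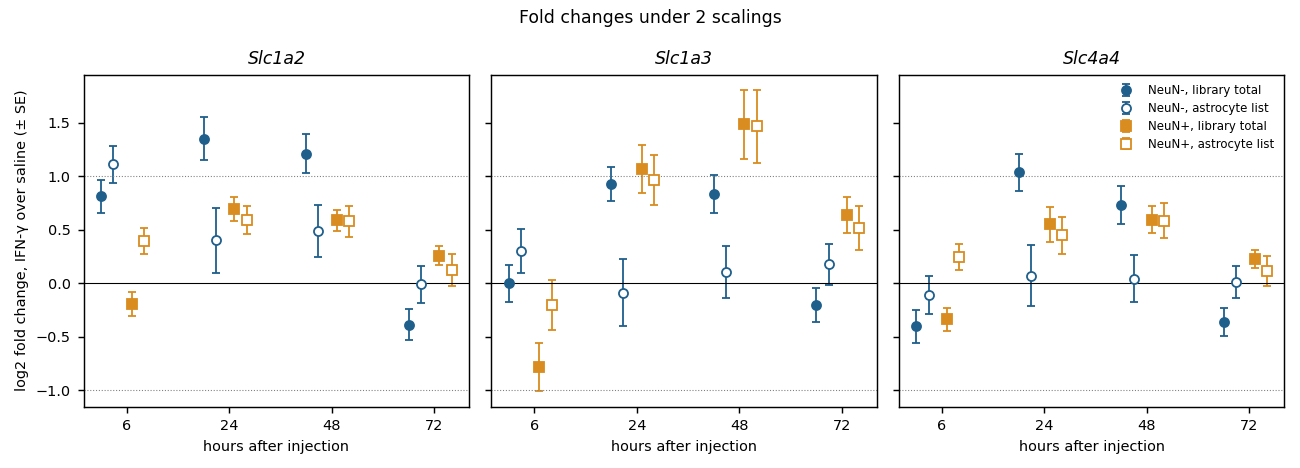
Log2 fold change (IFN-γ over saline, with SE) of Slc1a2, Slc1a3 and Slc4a4 at each time in NeuN- and NeuN+ wells, with library size taken from all genes or from the astrocyte marker list. In NeuN- wells the 24 h values of 0.93 to 1.35 become -0.09 to 0.40 on the list's scale, and the 6 h value of Slc1a2 goes from 0.81 to 1.11.

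The difference between fractions in the response to IFN-γ was tested as an interaction, NeuN+ minus NeuN-. Slc1a2 was the member called, at 6 h (-1.06 ± 0.20, adjusted p = 1.58e-04): 1 of 4 members tested, where 2.5% of 5968 genes were called. Its NeuN+ wells ran from 86.6 to 146 CPM in saline and from 87.1 to 117 CPM in IFN-γ wells at that time. With DESeq2 the value was -0.99, as with DESeq2's size factors in edgeR, and it passed the p limit without passing the fold limit. No member was called at 24 h (0 of 7 tested, where 4.17% of 7628 genes were), at 48 h (0 of 5, where 0.128% of 6227 were) or at 72 h (0 of 7, where 0.347% of 7494 were). At 72 h all 7 values were above 0, among them Fgfr3 at 2.87 ± 0.74 (adjusted p = 0.0262), Slc1a3 at 0.87 (0.0257), Slc1a2 at 0.67 (0.0133) and Slc4a4 at 0.63 (0.0182). In NeuN+ saline wells none of 4 members was called between times, where 0.0497% of 10057 genes were, with adjusted p-values of 0.0624 for Slc4a4 and 0.0669 for Slc1a3. Without the filter 3 members were called, in a fit that called 189 genes in all.

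Other genes of astrocyte function were read from lists. Of 12 genes of transport and glutamate handling, 5 were tested in NeuN- wells at 24 h, 2 were called higher and 1 lower. Slc7a11, the cystine-glutamate exchanger, rose by 2.94 ± 0.27 on the log2 scale (adjusted p = 3.48e-10), and Glul, glutamine synthetase, which oligodendrocytes also express, fell by 1.18 (8.47e-06). Against the matched saline wells Slc7a11 was at 2.35 and Glul at -1.49, both called. Glul also fell by 1.16 at 72 h (1.27e-04), the 1 call among 6 tested, and Slc6a11, a GABA transporter, rose by 1.40 at 48 h (0.00153), the 1 call among 5. None of 3 tested was called at 6 h. In NeuN+ wells 2 of 5 tested fell at 6 h, Slc6a11 (-1.19) among them, and 2 of 6 tested rose at 24 h, Slc7a11 (2.07) among them, with no call at 48 or 72 h. Against the matched wells at 24 h Slc7a11 was at 1.75 and called. The fraction interaction at 72 h was called for Slc7a10 (3.04), Glul (1.66) and Slc6a11 (1.42), 3 of 10 tested.

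Among 9 genes of coupling and the endfoot, Dtna, dystrobrevin alpha of the dystrophin complex that anchors Aqp4, rose in NeuN- wells at 24 h (1.34 ± 0.12, adjusted p = 5.46e-10), 1 of 4 tested, and Lama2, a laminin chain, fell in NeuN+ wells at 6 h (-1.13), 1 of 5. Among 9 genes of transcription and identity, Rorb, a nuclear receptor, rose in NeuN- wells at 24 h (1.66, 2.59e-07) and 48 h (1.20, 5.29e-04), 1 of 3 and 1 of 4 tested. Against the matched saline wells at 24 h both were still called, Dtna at 1.06 and Rorb at 1.001, just over the fold limit of 1. Their values on the scale of the astrocyte list, where the median of all genes at 24 h was -1.06, are not given here. The effect of Rorb differed between fractions at 6 h (-1.14) and 24 h (-1.74), and that of Dtna at 24 h (-1.02). Of 9 genes of lipid handling around Apoe 3 to 4 were tested in NeuN- and 7 in NeuN+ wells at each time, and of 6 partners of intermediate filaments 1 in NeuN- and 2 to 3 in NeuN+ wells. None was called after IFN-γ, on shares called over all genes of 0.169% to 14.6%.

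Few genes known from reactive astrocytes were tested. Of 11 A1-type genes 3 were tested in NeuN- wells at 6 h, 2 at 24 h, 2 at 48 h and 1 at 72 h. A gene near 0 in saline passes the filter on low counts only through its IFN-γ wells, as Gbp2 did, so a count of calls among those tested says nothing of the list. Those called higher were Gbp2 (6.81, 8.84 and 3.87 at 6, 24 and 48 h) and Iigp1 (5.50, 6.65, 5.48 and 4.40 at the 4 times), GTPases known as interferon targets in many cell types, and Fkbp5 (1.498 at 6 h), a glucocorticoid-induced co-chaperone. In NeuN+ wells 3 of 4, 5 of 6, 1 of 2 and 2 of 3 were called higher, among them H2-D1 and Serping1. Of 11 pan-reactive genes, Cxcl10, a chemokine (5.50), and Cp, ceruloplasmin (2.00), rose in NeuN- wells at 6 h, 2 of 2 tested, and no gene of the list was tested there later. None of 12 A2-type genes reached the level for a test. These lists are not particular to astrocytes in sorted pools, where microglia and oligodendrocytes are also present.

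Over the 42 NeuN- wells the genes most like each member were ranked by Pearson's r of log2(CPM + 1) among 3576 genes, a description over wells that share depth and cell makeup. Slc1a2 was most like Rorb (0.867), Tenm3 (0.820) and Dtna (0.820), Slc1a3 most like Adgrl3 (0.838), Rorb (0.823) and Gpc5 (0.805), and Slc4a4 like Dmd (0.893) and Luzp2 (0.882). The low members had no gene above 0.609, the value of Aqp4 with Plekha1.

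Single nuclei gave the members within astrocytes at 48 h. Clusters were built without the members and named from 14 other markers, all of which were found in each library. The astrocyte-like nuclei numbered 21 of 1016 in the saline mouse, 136 of 2574 in the first IFN-γ mouse and 37 of 1109 in the second, with median depths of 5077, 4448 and 6012 UMIs, and no cell barcode was shared between libraries. Their summed marker level was 17571, 17062 and 17902 CPM, where oligodendrocyte-like nuclei had 63.7 to 81.1 CPM. As the clusters were named from these same markers, the levels do not test the label. The sort bears on their share of nuclei, and its part in the differences between libraries was not tested.

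Slc1a2 stood at 3371 CPM in the saline mouse and at 3818 and 3386 CPM in the IFN-γ mice, all within a ratio to saline of 1.13 (counting interval 1.01 to 1.27) and 1.00 (0.886 to 1.14). Slc1a3 stood at 659.6, 796 and 804 CPM, and Slc4a4 at 4746, 4250 and 4052 CPM, ratios of 0.896 and 0.854. Gja1 stood at 467, 489 and 541 CPM and Fgfr3 at 311, 337 and 365 CPM. Between the mice these 5 genes differed by less than 1 log2 unit; fitted log2 fold changes were 0.11, 0.29, -0.18, 0.15 and 0.18. Apoe stood at 2758, 2541 and 3017 CPM. Aqp4 was lower in both IFN-γ mice, at 321 CPM in saline (35 UMIs) and 235 and 133 CPM, ratios of 0.733 (0.505 to 1.09) and 0.415 (0.248 to 0.694), and its log2 fold change of -0.70 ± 0.33 did not pass the test (adjusted p = 0.664).

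Gfap had the largest difference among the 8 members tested in these nuclei, which NeuN- wells at 48 h, with 5 of 6 IFN-γ wells at 0, did not show. It had 1 UMI in the 21 astrocyte-like nuclei of the saline mouse, 9.16 CPM with an exact Poisson interval of 0.232 to 51.0, and 70 and 35 UMIs in the IFN-γ mice, 108 CPM (83.9 to 136) and 150 CPM (105 to 209). The ratios to saline were 11.7 (2.04 to 470.4) and 16.4 (2.76 to 667), above the upper bound of 10.1 in NeuN- wells, with intervals that overlap it. A UMI of Gfap was found in 1 of 21 saline nuclei (4.76%), 39 of 136 (28.7%) and 12 of 37 (32.4%), and after thinning every nucleus to 1000 UMIs in 0%, 8.09% and 16.2%. Neurons are not known to make Gfap, and GABA neuron-like nuclei had 0.189, 0.351 and 3.19 CPM, and oligodendrocyte-like nuclei 5.76, 1.48 and 6.23 CPM. The fit gave 3.71 ± 0.89 (adjusted p = 0.0147), above the limit of 0.01, and each IFN-γ mouse was higher, by 2.98 and 3.47. With 1 saline mouse the spread was taken from the 2 IFN-γ mice, and the p-value leans on that. A call in nuclei needed a log2 fold change beyond 3 in the fit and in each mouse; none of 8 members tested passed, where 0.116% of 9518 genes did, and the members' median of 0.13 equalled that of all genes tested. Vim had 0, 3 and 3 UMIs, where a count of 0 in the saline mouse allows up to 27.5 CPM. Of the A1-type genes 1 of 7 tested was called, Iigp1, at 0 CPM in saline and 103 CPM in both IFN-γ mice (adjusted p = 0.00434).

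**Figure D4:**
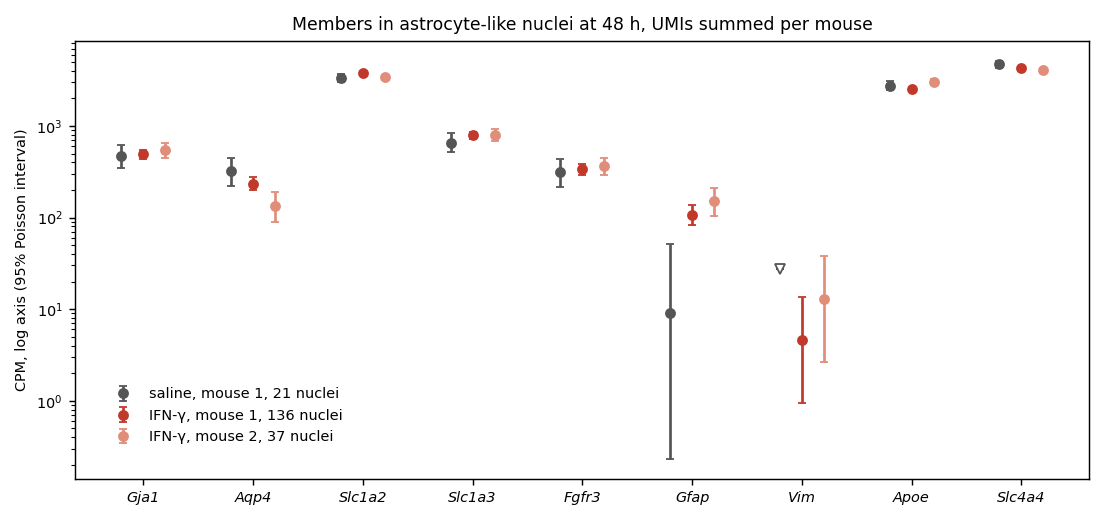
CPM (log axis) of the 9 members in astrocyte-like nuclei of the saline mouse and the 2 IFN-γ mice at 48 h, with exact 95% Poisson intervals for counting error. Gfap is at 9.16 CPM in saline against 108 and 150 CPM, Aqp4 is at 321 CPM in saline and at 235 and 133 CPM, and the open triangle marks Vim in saline, at 0 UMIs, drawn at the level of 3 UMIs.

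Across cell classes the members differed in how far they belonged to astrocytes. Astrocyte-like nuclei held 89.5%, 94.6% and 89.4% of the Gja1 molecules of the saline and the 2 IFN-γ libraries, 97.1%, 96.5% and 88.5% of Fgfr3 and 79.5%, 87.9% and 88.6% of Aqp4. They held 54.6%, 71.6% and 70.8% of Slc4a4, 25.1%, 60.2% and 48.6% of Slc1a2, 32.7%, 45.5% and 29.5% of Slc1a3, and 39.8%, 59.8% and 42.2% of Apoe. Of Gfap they held 10.0% (1 of 10 UMIs), 72.2% (70 of 97) and 47.9% (35 of 73), and of Vim 0%, 12.5% and 6.00% of 15, 24 and 50 UMIs. Shares depend on the number of nuclei of each class in a library, on which the sort bears, and levels per class do not. Slc1a3 stood at 121, 203 and 240 CPM in oligodendrocyte-like and 286, 245 and 215 CPM in microglia-like nuclei. These levels were below its astrocyte level in each library. Apoe in microglia-like nuclei was at 191 CPM in the saline mouse and 1108 and 1735 CPM in the IFN-γ mice. Slc1a2 in dopamine neuron-like nuclei was at 170, 134 and 171 CPM. A further 1694 nuclei carried no class name.

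**Figure D5:**
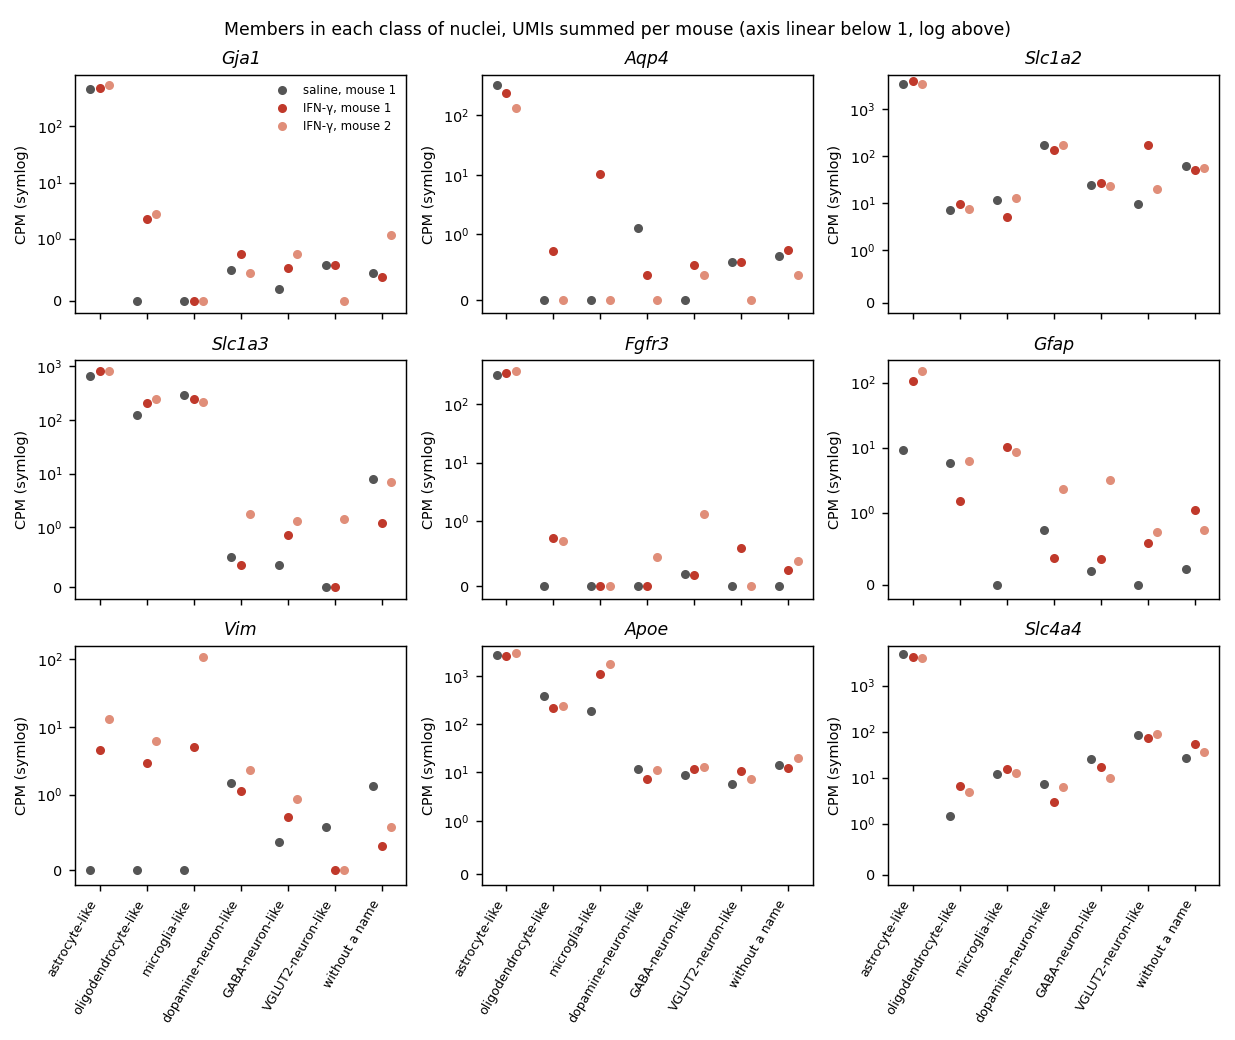
CPM of each member (axis linear below 1 and logarithmic above) in each class of nuclei and in those without a name, one point per library. Gja1, Aqp4 and Fgfr3 are highest in astrocyte-like nuclei, and Apoe and Slc1a3 also appear in microglia-like and oligodendrocyte-like nuclei.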

How the data were processed

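Ventral midbrain nuclei of IFN-γ- and saline-injected mice were sequenced as 84 wells of sorted nuclei and as 3 single-nucleus libraries. The authors deposited UMI counts per gene, not normalized. The submitters' processing notes name STAR and GRCm38. The labels give 1 fraction for every well, so each well's fraction was read from the study's well map by barcode. Replicate numbers in accession order name wells and pair none. No column of per-sample values was left unused (0).

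Counts were tested in edgeR 4.0.16 (R 4.3.3) with TMM factors, filterByExpr and the quasi-likelihood test within each fraction and time, with an interaction term between fractions at each time. As in the study's methods, a gene was called at an adjusted p under 0.01 (Benjamini-Hochberg) and an absolute log2 fold change over 1, or over 0.5 between fractions. The saline times were compared with an F test at the same p limit. CPM are counts over a well's total. DESeq2 1.42.0, its size factors in edgeR, no filter, all 84 wells in 1 fit, saline wells of all times, and library size from the astrocyte list were alternatives, and each well was left out in turn. The list without Gpc5, the summed pair of like wells and the saline wells matched in sex-linked genes were added after seeing the data.

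The deposited nuclei, from which the study had removed doublets, were clustered with Leiden (leidenalg 0.10.2, igraph 0.11.9; scikit-learn 1.9.0) on 2000 variable genes without the members, 30 components, 15 neighbours and resolution 1; resolutions 0.5 and 2 gave the same 194 astrocyte-like nuclei. UMIs were summed per mouse and genes with at least 10 UMIs were tested. Intervals are exact at 95% and cover counting error only; a count of 0 allows up to 3 counts. Scripts were tested on simulated data. The members and lists were chosen with earlier results of these data known. Named genes are the members, at most 4 called genes per list and comparison by absolute fold change, the 3 genes most like each member, and Rbfox3, Irf1 and Gbp2, and 2 genes that this rule names are not reported here.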

Additional observations from a re-analysis of the deposited data

Results flagged for a closer look

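A well that stood far from the others of its group was found in 16 of 144 groups of wells, where about 7.2 would be by chance at 1 in 20. Among the 3 members tested, Slc1a2 had a lowest value of 191 CPM in 1 of 6 NeuN- IFN-γ wells at 6 h (next 436) and a highest of 552 CPM in 1 of 6 at 48 h (next 421), and Slc4a4 a highest of 106 CPM in 1 of 4 NeuN+ saline wells at 6 h (next 93.8).

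The others rest on few molecules. Apoe reached 95.4 CPM in 1 NeuN- IFN-γ well at 6 h (next 38.6) and 90.0 CPM in 1 NeuN- saline well at 6 h (next 36.3). Fgfr3 reached 95.4 CPM in 1 NeuN- IFN-γ well at 6 h (next 29.1), 25.0 CPM in 1 NeuN- saline well at 48 h (next 10.4) and 7.95 CPM in 1 NeuN+ IFN-γ well at 72 h (next 4.30), and was lowest at 0.967 CPM in 1 NeuN+ saline well at 72 h (next 3.68). Gfap was at 1.19 CPM and at 0.614 CPM in 1 NeuN+ saline well at 24 and 48 h, at 7.44 CPM in 1 NeuN- saline well at 72 h and at 19.3 CPM in 1 NeuN- IFN-γ well at 48 h, with every other well of those groups at 0, and at 2.91 CPM in 1 NeuN+ IFN-γ well at 48 h (next 1.48). Vim was at 9.55 CPM and at 11.03 CPM in 1 NeuN- saline well at 6 and 24 h, with the others at 0.

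The response of Slc1a2 to IFN-γ differed between fractions at 6 h, by -1.06 on the log2 scale (NeuN+ minus NeuN-). It was not called with DESeq2 or with its size factors in edgeR (-0.99 in both), or without saline replicate 1, 2, 3 or 7. At 6 h the mice and the treatment cannot be told apart.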

How the results depend on the processing

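No paired analysis was possible because the labels give no shared replicate numbers. With library size from the astrocyte list, with or without Gpc5, 1 member was called in NeuN- wells at 6 h and 0 at 24 and 48 h, and 0 in NeuN+ wells at 24 h, where Slc1a3 was 0.97 with Gpc5 and 0.38 without. Without a filter on low counts 4 were called in NeuN- wells at 24 h, 1 in NeuN+ wells at 48 h, 8 between fractions and 3 between saline times in NeuN+ wells. With DESeq2 0 were called in the interaction at 6 h, 8 between fractions and 1 between saline times in NeuN- wells. DESeq2's size factors in edgeR gave 0 in the interaction at 6 h, saline wells of all times gave 0 in NeuN- wells at 48 h, and 1 fit of all 84 wells gave 1 in NeuN+ wells at 48 h and 6 between fractions. Against saline wells with more Y gene than Xist counts 0 were called at 24 h in NeuN- wells and 0 in NeuN+ wells.

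Leaving out 1 well gave 1 to 3 members called in NeuN- wells at 24 h, 0 to 2 at 48 h, 0 to 1 in NeuN+ wells at 24 h, 0 to 1 in the interaction at 6 h (0 without saline replicate 1, 2, 3 or 7), and 0 to 2 and 0 to 1 between saline times in NeuN- and NeuN+ wells (1 without saline replicate 7 at 24 h). Without any 1 saline well at 72 h, or without replicate 1, 2 or 4 at 48 h, no member was called between NeuN- saline times.

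Signs turned in 22 of 332 values. A turn was counted only where either value was called or the main log2 fold change was beyond its SE. On the astrocyte list these were, in NeuN- wells, Slc1a3 at 24 h (-0.087) and 72 h (0.18) and Slc4a4 at 72 h (0.014), and in NeuN+ wells at 6 h Slc1a2 (0.40) and Slc4a4 (0.25). On the list without Gpc5 they were, in NeuN- wells, Slc4a4 at 6, 24 and 72 h (0.085, -0.0074 and 0.049), Slc1a3 at 24 and 72 h (-0.16 and 0.22) and Slc1a2 at 72 h (0.031), and in NeuN+ wells Slc1a2 and Slc4a4 at 6 h (0.46 and 0.30), 24 h (-0.032 and -0.16) and 72 h (-0.31 and -0.33). Against saline wells of all times they were, at 72 h in NeuN- wells, Slc1a2 (0.17), Slc1a3 (0.11) and Slc4a4 (0.093), and in NeuN+ wells Slc1a2 at 6 h (0.0046) and Slc4a4 at 48 h (-0.060). The cause was not tested.

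Genes called over all tested moved by over 1.5 times in 35 of 90 comparisons with an alternative. In NeuN- wells at 24 h 274 became 639 without a filter, 517 with DESeq2, 702 in the fit of 84 wells and 1064 and 1145 on the lists. At 6 h 312 became 480 in that fit and 515 on the list without Gpc5. At 48 h 33 became 56 without a filter, 368 and 150 on the lists, 53 in that fit and 21 against all saline wells, and at 72 h 33 became 81 and 80 on the lists and 20 against all saline wells. In NeuN+ wells 124 at 6 h became 671 and 883 on the lists, 163 at 24 h became 297 without a filter and 1761 on the list without Gpc5, 17 at 48 h became 40, 363, 11 and 31 (no filter, that list, all saline wells, 84 wells), and 72 at 72 h became 617 on that list. The interaction had 318 at 24 h (172 against saline wells with more Y gene than Xist counts), 8 at 48 h (21 without a filter, 15 with DESeq2) and 26 at 72 h (40 without a filter), the fractions 2725 (7030 and 6578), saline times 30 in NeuN- (68 and 13) and 5 in NeuN+ wells (189 and 27), in the same order, and nuclei 11 (1 with DESeq2).

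The shallowest NeuN- well held 20962 UMIs, and 6 of the 9 members passed no filter on low counts in NeuN- wells within a time, Gfap and Vim among them. With 1 saline mouse, nuclei give no spread for saline.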
